A study of Mus musculus and Homo sapiens with 60 samples.

Results

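Myc binding sites in mouse fibroblasts were compared between starved cells given serum, which switches on the endogenous Myc gene, and growing cells in which an added Myc fusion protein, MycER, was activated. Sites were measured by chromatin immunoprecipitation and sequencing (ChIP-seq) with the Myc antibody N262. The members are the regions obtained by merging both deposited peak lists, 1 library each: 16384 peaks after 2 h of serum and 27693 peaks after 4 h of 4-hydroxytamoxifen (OHT). Merging gave 29383 sites. Of these, 14057 (47.8%) held a peak of both lists and are called shared, 1811 (6.16%) held a peak of the serum list only, and 13515 (46.0%) held a peak of the MycER list only. These shares are the background for every count below. The series has 60 samples, 53 of them with a peak list, and the other fibroblast and B-cell lists were used only to describe these sites.

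All cells were 3T9 fibroblasts derived from E13.5 embryos (embryonic day), of mixed strain and with the genotype c-myc flox/flox. The serum cells carried no MycER by their labels. They were kept without serum for 48 h and then given 10% fetal bovine serum (FBS) for 1 or 2 h, or none (0 h). The MycER cells were infected in culture with MycER, grown in 10% FBS, and received 400 nM OHT for 4 h or the solvent ethanol (0 h). They had therefore not been starved, and the Myc antibody does not separate endogenous Myc from MycER. The labels do not say whether the MycER cells were 1 clone or a pool, and Myc protein levels were not measured in these lists. RNA polymerase II (RNAPII) and the histone marks H3K4me3, H3K4me1 and H3K27ac were mapped in the MycER cells only, so marks of the ethanol-treated cells stand in for those of both cultures.

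Myc is a transcription factor of the basic helix-loop-helix leucine zipper family that binds DNA together with its partner Max, preferring short palindromes known as E-boxes. In fibroblasts it is nearly absent during starvation and is made within hours of serum addition, as an early step in the return to growth. MycER joins Myc to the hormone-binding domain of the oestrogen receptor, which keeps the protein inactive until OHT is added. H3K4me3 marks active promoters, H3K4me1 marks enhancers and the flanks of promoters, and H3K27ac marks active promoters and enhancers. RNAPII transcribes the genes.

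The libraries differ in ways other than Myc. The peak numbers of all 3 serum lists ran without gaps, whereas the MycER lists held 74.4% (ethanol) and 80.1% (OHT) of the numbers up to their highest. Some numbered MycER peaks were thus left out of the lists, and a serum-only site cannot be told apart from a site left out of the MycER list. Chromosome 10 held 9.26%, 8.51% and 8.28% of Myc peaks at 0, 1 and 2 h of serum, against 5.12% and 5.38% in the ethanol and OHT lists. The median score was 194.7 in the serum list and 319.2 in the MycER list. With 1 library a condition no difference between the conditions could be tested, and read depth is not known from peak lists. Intervals below are exact 95% binomial intervals and cover counting error only. Regions are given on mm9, counted from 1, without gene names, because no gene annotation of that build was used.

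In these lists of unequal length, nearly all serum peaks were also MycER peaks, but the reverse did not hold. Of the serum peaks, 14573 (88.9%, interval 88.5 to 89.4) overlapped a MycER peak by at least 1 bp, and of the MycER peaks 14178 (51.2%, interval 50.6 to 51.8) overlapped a serum peak. With the 16384 highest-scoring peaks of each list, the shares were close, at 75.05% and 72.3%. The overlaps were large, with a median of 1384 bp, and only 10 of the overlapping serum peaks shared under 100 bp. Near misses were few. A peak of the other list lay within 1 kb of 123 serum-only sites (6.79%) and of 663 MycER-only sites (4.91%), and the median distance to it was 13.8 kb and 25.1 kb. The median width was 1944 bp at shared, 1235 bp at serum-only and 1299 bp at MycER-only sites, and a shared site is by construction the union of peaks from both lists.

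Sharing followed the authors' peak score, which ranks peaks within a list. Each list was split by score into 10 equal groups. In the highest group of the serum list 99.8% of peaks (interval 99.5 to 99.96) overlapped MycER peaks, and in the lowest group 72.9% (interval 70.7 to 75.05). In the MycER list the shares found with serum were 97.8% (interval 97.1 to 98.3) in the highest and 13.1% (interval 11.8 to 14.4) in the lowest group. The score percentile, 100 being the highest rank of a list, had a median of 22.4 at serum-only and 29.4 at MycER-only sites. At shared sites it was 55.3 in the serum list and 71.9 in the MycER list. Between the 2 rankings Spearman's rho was 0.668 across the 14057 shared sites, 0.713 across the 8329 on H3K4me3 and 0.476 across the 5728 off it. These are descriptions across sites, which are not independent replicates, and each pair of scores belongs to 1 region of 1 width.

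**Figure D1:**
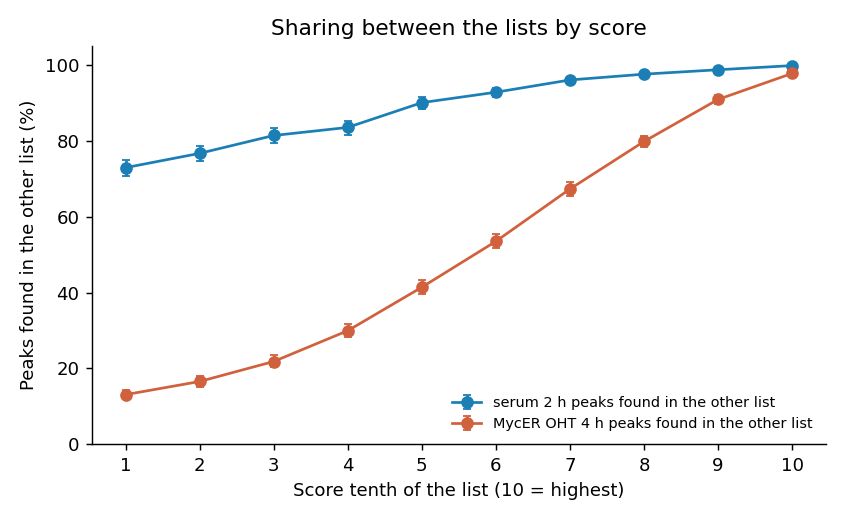
Share of peaks (%) found in the other list, by 10 equal groups of each list's score, 10 being the highest (serum 2 h in blue, MycER with OHT in orange; bars are exact 95% binomial intervals, 1 library each). Serum peaks ranged from 72.9% to 99.8% and MycER peaks from 13.1% to 97.8%.

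The classes lay on different chromatin. Shared sites were mostly promoter-like, MycER-only sites mostly enhancer-like, and serum-only sites mostly enhancer-like, with H3K27ac on fewer of them than in the other classes. H3K4me3 of the ethanol-treated cells overlapped 59.3% of shared, 28.2% of MycER-only (interval 27.5 to 29.0) and 5.19% of serum-only sites (interval 4.22 to 6.32). RNAPII overlapped 64.7%, 29.0% (interval 28.3 to 29.8) and 10.5% (interval 9.12 to 12.0) in the same order. H3K27ac lay on 94.4% of shared, 79.8% of MycER-only (interval 79.1 to 80.4) and 40.9% of serum-only sites (interval 38.6 to 43.2). H3K4me1 was on most sites of each class, at 98.5%, 93.95% and 80.3%. All 4 lists met at 54.5% of shared, 18.7% of MycER-only and 2.37% of serum-only sites, and none of them at 1.03%, 4.63% and 16.8%. For scale, the H3K4me3, H3K4me1, H3K27ac and RNAPII peaks covered 1.31%, 6.28%, 4.28% and 2.98% of the chromosome lengths that peaks span.

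**Figure D2:**
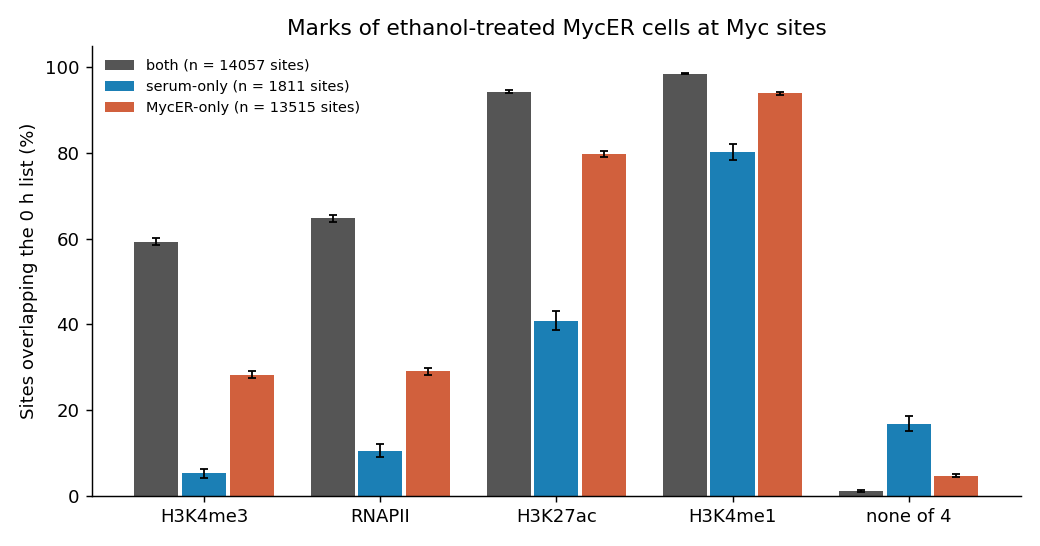
Share of sites (%) of each class that overlap a peak of the ethanol (0 h) lists of H3K4me3, RNAPII, H3K27ac and H3K4me1, or of none of them (bars are exact 95% binomial intervals). Serum-only sites are the lowest for each mark and the highest, at 16.8%, for sites without any.

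The difference between the 2 unshared classes was -23.1 percentage points for H3K4me3 (serum-only minus MycER-only), -18.5 for RNAPII, -38.9 for H3K27ac and -13.6 for H3K4me1. Serum-only sites had the lower share for each of the 4 on all 20 chromosomes (1 to 19 and X), although X held only 18 serum-only sites. When each peak was cut to 500 bp around its centre before the lists were compared, the H3K4me3 difference turned to 8.26 points and the RNAPII difference to 13.0. Of the 3909 serum peaks then unmatched, 2098 (53.7%) overlapped a MycER peak as deposited, and 71.8% of those lay on H3K4me3. With the classes kept and only the central 500 bp of each site held against the marks, the differences were -22.9 and -18.2 points.

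Serum-only peaks had fewer marks than shared peaks of similar score rank too. Each list was split by score into 4 equal groups. In the lowest group of the serum list, H3K4me3 lay under 42.3% of the peaks shared with MycER and under 5.95% of the 992 that were not. In group 3 the shares were 60.9% and 3.92%, the latter of 204 peaks. In the highest group they were 80.4% and 6.98% (interval 1.46 to 19.1), the latter of only 43 peaks. H3K4me3 at serum-only peaks thus stayed within 3.92% to 6.98% over the 4 groups, while it rose with score group among shared serum peaks.

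MycER-only peaks behaved otherwise. From the lowest to the highest group of the MycER list, H3K4me3 lay under 18.2%, 28.4%, 44.9% and 56.1% of unshared peaks and under 18.1%, 34.7%, 55.0% and 78.0% of shared peaks. H3K27ac lay under 70.3% to 92.9% of unshared and 76.5% to 99.1% of shared MycER peaks, against 39.6% to 53.5% of unshared serum peaks. In the lowest group, shared and unshared MycER peaks thus differed by less than their counting intervals in H3K4me3, whereas the intervals of shared and unshared serum peaks did not overlap in any group.

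**Figure D3:**
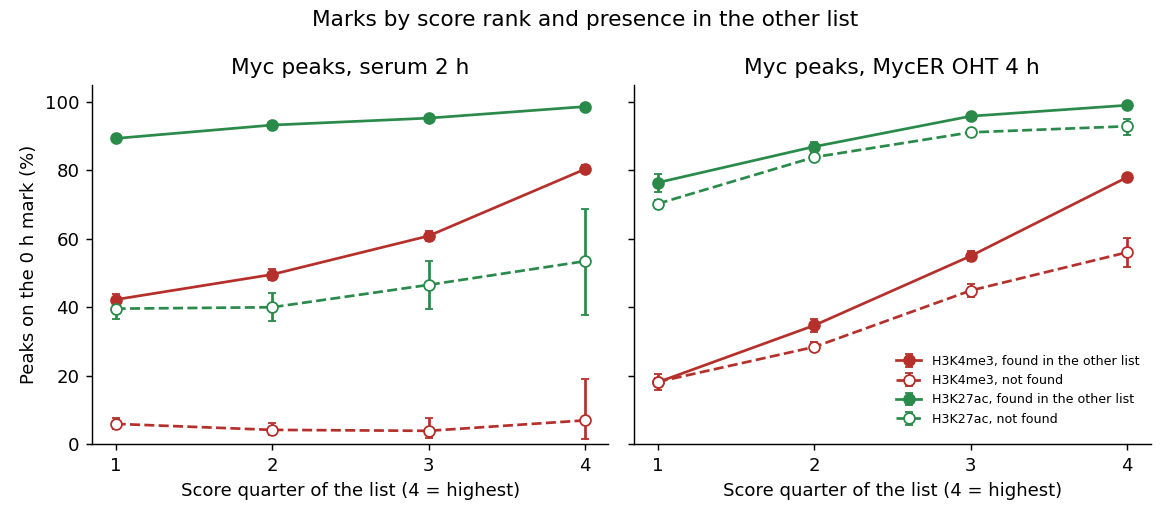
Share of Myc peaks (%) on H3K4me3 (red) or H3K27ac (green) of the ethanol list, by score group (4 being the highest), for peaks found in the other list (filled, solid) and not found (open, dashed), with exact 95% binomial intervals. The dashed H3K4me3 line stays between 3.92% and 6.98% in the serum list and climbs from 18.2% to 56.1% in the MycER list.

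Grouping the sites by all 4 lists gave the kinds of region behind these shares. Promoter-like sites with RNAPII (H3K4me3 and RNAPII) were 54.7% of shared, 19.0% of MycER-only and 2.54% of serum-only sites. Acetylated distal sites without RNAPII (H3K4me1 and H3K27ac, no H3K4me3) were the largest kind among MycER-only sites, at 45.6%, and made up 26.1% of shared and 33.5% of serum-only sites. Distal H3K4me1 sites without H3K27ac, the pattern of primed enhancers, were the largest kind among serum-only sites, at 38.65%, and made up 12.3% of MycER-only and 3.75% of shared sites. Read the other way, the list of origin changed with the kind of region. Of the 10307 promoter-like sites with RNAPII, 74.6% were shared and 0.446% serum-only. Of the 2894 distal H3K4me1 sites without H3K27ac, 18.2% were shared, 57.6% MycER-only and 24.2% serum-only. Of the 1076 sites without any of the 4, 13.48% were shared, 58.2% MycER-only and 28.3% serum-only. Off H3K4me3, the median distance to the nearest H3K4me3 region was 34.4 kb at shared, 38.5 kb at serum-only and 37.6 kb at MycER-only sites.

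Taking the marked regions as the starting point gave the share of promoters and enhancers that Myc reached. Of the 13855 H3K4me3 regions, 60.45% carried Myc after serum and 85.2% with activated MycER. Both lists had Myc on 59.9%, only the MycER list on 25.3%, only the serum list on 0.541% (75 regions), and neither on 14.3%. RNAPII divided these regions. With RNAPII, 73.3% carried Myc after serum and 95.5% with MycER. Without RNAPII and with H3K27ac, the shares were 29.2% and 69.7%. Without either, they were 5.92% and 26.1%, and 72.4% of the 1301 regions had Myc in neither list. The ethanol list already had Myc on 67.6% of all H3K4me3 regions without OHT. For the kinds above its shares were 81.3%, 34.8% and 8.38% in the same order. The Myc lists differ in length, which these shares do not allow for.

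Wide H3K4me3 regions were bound most often. The regions were split by width into 4 equal groups. In the narrowest group (up to 1649 bp) Myc lay on 29.1% after serum and on 58.6% with MycER. In the widest group (from 3132 bp) it lay on 84.1% and 99.0%. A wider region has more room to meet a peak, and that part was not tested. Distal H3K27ac regions (with H3K4me1 and without H3K4me3) followed the same order at lower levels. Of 21533 such regions, 23.0% carried Myc after serum and 47.2% with MycER, from 10.1% and 22.3% in the narrowest to 39.7% and 76.8% in the widest of 4 groups. The ethanol list had Myc on 27.5% of the 21533. Distal H3K4me1 regions without H3K27ac were seldom bound, with 1167 of 34320 after serum (3.4%), 5.997% with MycER and 1.60% with ethanol. Here the serum-only share (1.94%) was above the shared one (1.46%), whereas it was below it at each of the H3K4me3 and distal H3K27ac kinds.

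**Figure D4:**
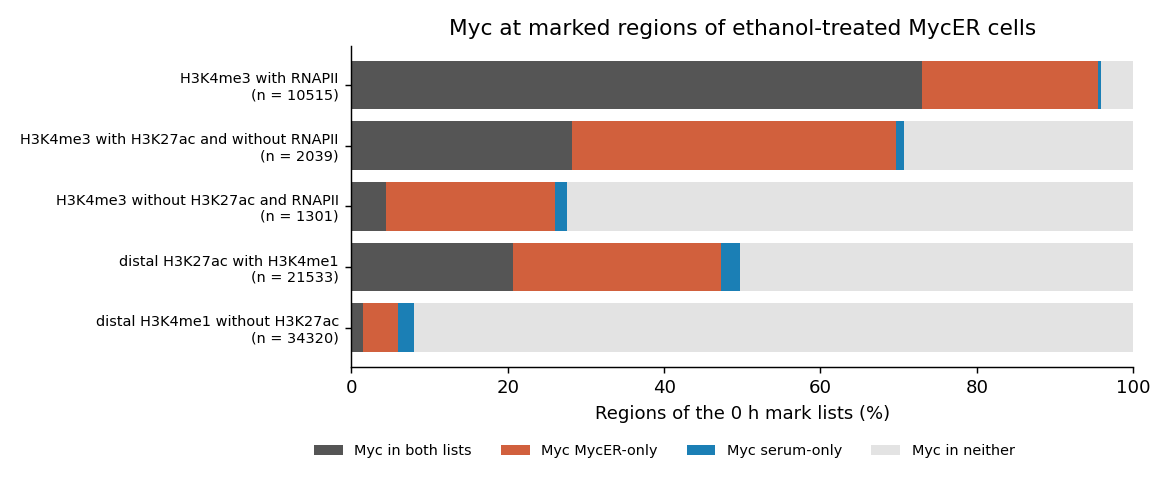
Share of regions (%) of the ethanol mark lists that hold a Myc peak of both lists, of the MycER list only, of the serum list only, or of neither. A serum peak lay on 73.3% of H3K4me3 regions with RNAPII and on 5.92% of those without H3K27ac and RNAPII. It lay on 23.0% of distal H3K27ac regions and on 3.4% of distal H3K4me1 regions without H3K27ac.

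Equal numbers of highest-scoring peaks removed the difference in list length. With all peaks, 53.6% of serum and 44.1% of MycER peaks lay on H3K4me3. With 16384 peaks of each, the order turned, at 53.6% and 59.6%. The MycER list then went down to a score of 236.9 and the serum list to 80.02. At 10000 peaks each the shares on H3K4me3 were 64.6% and 70.3%, at 5000 they were 77.1% and 79.8%, and at 2000 they were equal, at 86.75%. The lowest of the 10 score groups of the MycER list, which the equal numbers leave out, lay on H3K4me3 at 15.0%.

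Equal numbers also changed the sharing, but not the order of the unshared classes on H3K4me3, except at the top. With 16384 peaks each, 75.05% of the serum and 72.3% of the MycER peaks were found in the other set, which gave 11786 shared, 4088 serum-only and 4544 MycER-only sites. H3K4me3 lay on 66.2%, 15.1% (interval 14.0 to 16.3) and 42.5% (interval 41.0 to 43.9) of them. H3K27ac lay on 97.1%, 62.8% and 90.3%, and RNAPII on 72.2%, 18.9% and 44.4%. At 5000 peaks each the H3K4me3 shares were 85.5%, 58.4% and 67.5%. At 2000 they were 92.4%, 77.5% (interval 74.3 to 80.4) and 77.7% (interval 74.6 to 80.6), so that on H3K4me3 the counting intervals of the unshared classes overlapped. For RNAPII they did not, at 82.4% (interval 79.5 to 85.0) of serum-only and 87.9% (interval 85.4 to 90.1) of MycER-only sites. H3K27ac lay on 97.1% and 98.3% of them, and H3K4me1 on 99.2% and 98.4%. Of those top 2000, 99.7% of serum peaks and 98.25% of MycER peaks were somewhere in the full list of the other condition.

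The ethanol list gave the sites occupied without OHT. Myc was already called without OHT at 84.4% of shared and 36.2% of MycER-only sites, and at 4.25% of serum-only sites (77 of 1811). Serum-only sites are by definition absent from the OHT list of the same MycER cells, and the ethanol list also had peaks left out. How far this sets their low share was not tested. The remaining 8627 MycER-only sites, absent from the ethanol list, ranked low, at a median percentile of 20.9 against 48.8 for the 4888 present in it. They lay on H3K4me3 at 24.8%, on RNAPII at 22.5%, on H3K27ac at 73.5% and on H3K4me1 at 91.9%. The 4888 already present lay on them at 34.4%, 40.6%, 90.7% and 97.5%. Of the shared sites, 2190 were called after serum and with OHT but not with ethanol. Their shares were above those of the 8627 MycER-only sites, which were also absent with ethanol. H3K4me3 was at 28.5% (interval 26.6 to 30.4) against 24.8% (interval 23.85 to 25.7). RNAPII was at 28.5% (interval 26.65 to 30.5) against 22.5% (interval 21.6 to 23.4). H3K27ac was at 81.6% (interval 79.96 to 83.2) against 73.5% (interval 72.6 to 74.5). These shared sites also ranked higher in the MycER list, at a median percentile of 32.45 against 20.9.

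Shared sites called earlier in the serum series ranked higher in both the MycER list and the serum 2 h list. The 4996 shared sites called already in starved cells had a median MycER percentile of 88.0. The 3041 first called at 1 h had 74.1, and the 6020 first called at 2 h had 54.1. Their median serum 2 h percentiles were 80.4, 63.4 and 32.2 in the same order. Time of first call was therefore not separated from peak rank. Their H3K4me3 shares were 77.3%, 57.1% and 45.4%. Most serum-only sites, 1638 of 1811, were in neither the 0 h nor the 1 h list. Those lists were shorter, with 5832 and 8105 peaks against 16384 at 2 h. The 1638 also ranked lower at 2 h, at a median percentile of 21.3 against 36.1 for the rest. What part list length and rank have in this was not tested. The 173 called earlier had H3K4me1 on 70.5% (interval 63.1 to 77.2) against 81.4% of the 1638 (interval 79.4 to 83.2), and RNAPII on 16.2% against 9.89%. H3K4me3 lay on 5.20% and 5.19% of them.

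Myc lists of mouse B cells (1 wild-type and 3 Eu-myc transgenic spleen libraries) and of 3 Eu-myc tumours were laid over the same sites. They held 47.7% to 78.4% of their peak numbers, so peaks were left out of them as of the MycER lists, and what part this has in the low shares of serum-only sites was not tested. These came from C57BL/6 mice, from splenic B cells and, for the tumours, from unsorted lymph node cells. Eu-myc mice carry a Myc transgene that is active in B cells. The spleen lists had 5246 to 12985 peaks and the tumour lists 27347 to 34142. The median peak width was 233 bp in the wild-type and 261 bp in the first transgenic spleen list, and 1386 to 1476 bp in the others. Spleen and tumour shares are therefore not directly comparable. The tumour libraries held a Myc peak at 54.6% to 57.0% of shared, 26.1% to 27.8% of MycER-only and 9.06% to 11.8% of serum-only sites. The spleen libraries did so at 21.2% to 38.8%, 2.85% to 10.1% and 0.718% to 3.98%. This order held on H3K4me3 too. There, 78.9% of shared, 53.0% of MycER-only and 34.0% of serum-only sites (interval 24.6 to 44.5, 32 of 94) had Myc in all 3 tumours. Off H3K4me3 the shares were 8.38%, 6.62% and 3.79%, and 76.0%, 79.8% and 84.8% had Myc in none of the tumours.

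Serum-only sites were crowded on chromosome 10. It held 18.2% of them (330 sites, interval 16.5 to 20.1), against 3.60% of MycER-only and 7.02% of shared sites. Of its 1804 sites, 18.3% were serum-only, whereas the other 19 chromosomes ranged from 3.29% (chromosome 7) to 8.28% (chromosome 9). MycER-only sites were 27.0% of its sites, below the range of 39.4% to 54.7% elsewhere. The excess was spread along the chromosome: in 12 of 13 windows of 10 Mb the serum-only share was above the 6.16% of all sites, with a range of 6.06% to 29.7%. Shared sites on chromosome 10 had a median serum percentile of 64.4, above the 47.8 to 60.7 of the other chromosomes, and a median MycER percentile of 63.6, below their 66.1 to 77.35. The higher share of chromosome 10 was present before serum, at 9.26% of the 0 h peaks, and not in the MycER cells, whose mark lists had 4.70% to 5.72% of peaks on it. Marks at its serum-only sites were near those elsewhere, with H3K4me3 at 3.33% against 5.60% and H3K27ac at 36.7% against 41.8%. Without chromosome 10, 90.1% of serum and 50.3% of MycER peaks were found in the other list, and the difference between serum-only and MycER-only sites was -22.9 points for H3K4me3 and -38.1 for H3K27ac. Copy number was not tested.

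**Figure D5:**
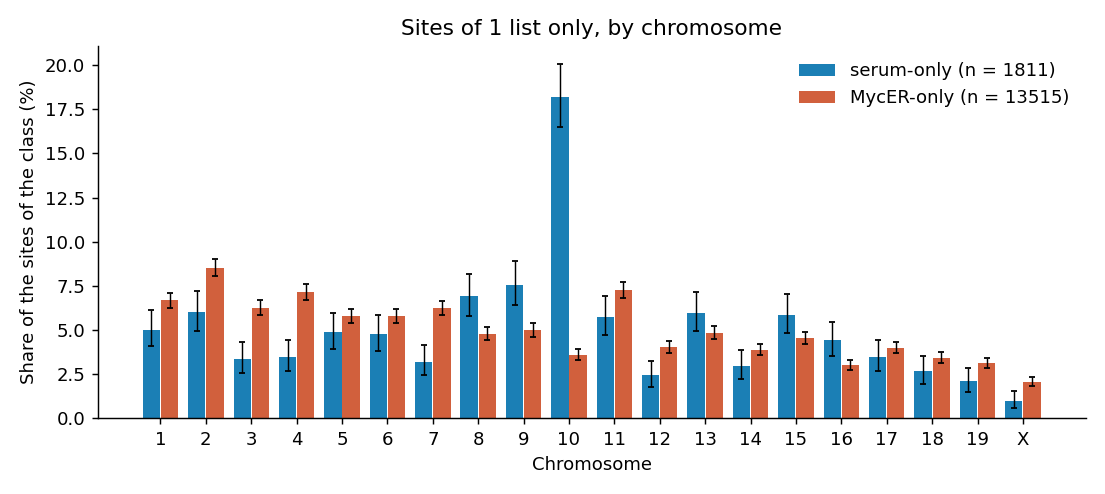
Share of the 1811 serum-only (blue) and 13515 MycER-only (orange) sites on each chromosome (%), with exact 95% binomial intervals. Chromosome 10 holds 18.2% of the serum-only and 3.60% of the MycER-only sites, and each other chromosome holds at most 7.56% of the serum-only sites.

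The highest-ranked sites of each class, chosen by score percentile within the lists, are single cases and need not resemble their class. The 5 shared sites with the highest mean percentile all had the 4 marks in ethanol and in OHT cells, Myc in the ethanol, 0 h and 1 h serum lists, and Myc in 5 to 7 of the 7 B-cell and tumour lists. The first was chr10:79445681-79453396, with scores of 2279 in the serum and 3219 in the MycER list. The second, chr13:3608851-3611297, and the third, chr2:30032964-30035004, were, like the fifth, found in all 7 B-cell and tumour lists. Off H3K4me3, the first was chr5:124456186-124458495, an acetylated site with RNAPII that was 21361 bp from the nearest H3K4me3 region. The next, chr17:39979315-39986351, had none of the 4 marks with ethanol, yet Myc in each of the fibroblast lists and all 7 B-cell and tumour lists. With OHT it had RNAPII only. This site was 7037 bp wide and scored 3100 in both lists, and read mapping and copy number there were not tested.

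The 5 serum-only sites with the highest rank had percentiles of 88.75 to 94.4 and none was in the ethanol list or in any B-cell or tumour list. The first, chr13:111187242-111194149, had all 4 marks, and the nearest MycER peak was 317 bp away. The second, chr8:127536011-127537910, had none of the 4 marks. It carried Myc at 0 h, 1 h and 2 h of serum, and the nearest MycER peak was 50953 bp away. The third, chr15:79820163-79829397, and the fifth, chrX:20452459-20456313, had RNAPII but none of the histone marks. The fourth, chr8:124799438-124803580, had H3K4me1 and RNAPII and lay 482 bp from a MycER peak. RNAPII was on 4 of these 5 sites. It was on 10.5% of the class and under 16.3% (interval 6.81 to 30.7) of the 43 unshared peaks in the highest of 4 serum score groups. These 5 sites were 1900 to 9235 bp wide against a class median of 1235 bp, and wider sites have more room to meet a peak.

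Few MycER-only sites reached a score of 3100, a value that many MycER peaks share. It was reached or passed by 19 of 13515 MycER-only sites (0.141%, interval 0.0847 to 0.2195), against 8.69% of shared sites by their MycER score. The first, chr10:38858619-38860580, scored 3181 and had no mark with ethanol and H3K27ac with OHT. It was not in the ethanol list. The second, chr3:138868130-138869662, and the third, chr8:27125219-27127129, scored 3126 and 3104. Both had all 4 marks and Myc in the ethanol list, the second in all 7 B-cell and tumour lists and the third in 5. The third was also called at 1 h of serum although not at 2 h. Of the next, tied at 3100 and placed by width, chr5:48373612-48378381 had all 4 marks, and chr14:121644231-121648657 had H3K4me1, H3K27ac and RNAPII and lay 61262 bp from H3K4me3. Both were in the ethanol list, and the latter was also called at 1 h of serum.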

How the data were processed

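Each of the deposited lists belongs to 1 sample and gives the position, name and score of its peaks. The submitters' processing notes name BWA 0.6.2, SAMtools, MACS 1.4.1 and the build mm9, with no roles or settings. No step records the unit of the score in the deposited lists. Its range fits the value MACS writes for a peak, -10 log10 of p, it never fell below 80.01 in the lists used, and it served to rank peaks within a list. Scores given for both lists describe each list and are not on 1 scale. Per the labels' protocols, fragments averaged 250 bp.

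The Myc lists of serum 2 h and OHT 4 h were merged into sites, peaks sharing at least 1 bp being joined, and a mark or another Myc list counted as present from 1 bp of overlap. Score percentiles were computed within each list, a site taking its highest peak. Equal numbers were the highest-scoring peaks of each list, ties being taken in order of position. Shares have exact (Clopper-Pearson) 95% intervals. A total of 20 lists was used. The sites named were taken from the 5 with the highest percentile in each class, or mean percentile for shared sites, and from the 3 highest off H3K4me3. Ties were settled by score, then width, and not all of these sites are printed. Planned lists of genes and marker genes were not analysed, because the gene table at hand is on another build. The sites and comparisons were chosen with earlier results of these data known.

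Python 3.11.15, numpy 2.4.6, pandas 2.3.3 and scipy 1.17.1 were used. Overlap counting was tested on simulated data (6 of 6 sets returned the number of overlaps they were made with) and gave the counts of bedtools 2.31.1 in 2 of 2 comparisons.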

Additional observations from a re-analysis of the deposited data

Results flagged for a closer look

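The share of Myc peaks on chromosome 10 had changes of opposite sign with the 2 stimuli, both within overlapping counting intervals. It changed by -0.977 percentage points from 0 h (9.26%, interval 8.53 to 10.03) to 2 h of serum (8.28%, interval 7.87 to 8.71) and by 0.267 points from ethanol (5.12%, interval 4.80 to 5.45) to OHT (5.38%, interval 5.12 to 5.66). The difference between these changes was not tested, since each rests on 1 library a condition.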

How the results depend on the processing

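Values as reported were 88.9% of serum peaks found with MycER, 51.2% of MycER peaks found with serum, serum-only minus MycER-only differences of -23.1 (H3K4me3), -13.6 (H3K4me1), -38.9 (H3K27ac) and -18.5 points (RNAPII), and a serum minus MycER list difference of 9.52 points on H3K4me3. The order below is the same. Keeping the upper part of each list, from its median score, the mark differences were -31.2, -4.4, -21.3 and -29.6 and the list difference 5.03. With equal numbers of peaks, the shares found were 75.0% and 72.3%, the mark differences -27.4, -9.12, -27.5 and -25.5, and the list difference reversed to -5.96. With peaks set to 500 bp, the shares found were 76.1% and 45.0%, and the mark differences 8.26, -3.64, -10.5 and 13.0, so that H3K4me3 and RNAPII reversed. By construction this setting drops overlaps of peaks whose centres lie 500 bp or more apart. Of the serum peaks it left unmatched, 53.7% overlapped as deposited. With marks at 4 h of OHT, the H3K27ac difference was -44.0. With mark peaks at or above their median score, the differences were -16.1, -35.4, -36.0 and -11.4. The cause of these shifts was not tested.

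Chosen after seeing the data, leaving out chromosome 10 gave 90.1%, 50.3% and a list difference of 10.5. Counting peaks within 1 kb as found gave 89.7% and 53.6%. Keeping only MycER-only sites absent from the ethanol list gave -19.6, -11.6, -32.7 and -12.0. An overlap of 50% of the shorter peak, chromosomes 1 to 19 alone, and marks on the central 500 bp of each site left these values within their counting intervals. Single shares of MycER-only sites moved beyond theirs, with the 50% overlap to 91.7% (H3K4me1), 79.0% (H3K27ac) and 27.8% (RNAPII), and on the central 500 bp to 92.8% (H3K4me1) and 27.7% (RNAPII).

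No paired analysis was possible because each condition has 1 library and the results come from no test. Without replicates, library differences (peaks left out of the MycER list, starved against growing cells, unknown read depth) cannot be told apart from Myc. Marks come from growing MycER cells, so marks that starved cells or serum set differently are not seen.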

Other observations

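The mark lists of OHT-treated cells added a view of change at the same sites. Where H3K27ac was absent with ethanol, it was called after 4 h of OHT at 26.2% of shared sites (208 of 793, interval 23.2 to 29.4), at 19.7% of MycER-only sites (540 of 2736, interval 18.3 to 21.3) and at 5.88% of serum-only sites (63 of 1071, interval 4.55 to 7.46). Among MycER-only sites absent from the ethanol Myc list it was 18.9%, and among those present 24.0%. Where H3K27ac was present with ethanol, it was missing after OHT at 0.973%, 3.60% and 18.2% in the same order of classes. Of all sites without H3K27ac with ethanol, 811 of 4600 gained it (17.6%). Of all sites with H3K27ac, 652 of 24783 lost it (2.63%). The OHT list of H3K27ac covered 97.99 Mb against 113.0 Mb with ethanol. Where RNAPII was absent with ethanol, it was called after OHT at 11.8% of shared, 5.65% of MycER-only and 1.48% of serum-only sites. Where RNAPII was present with ethanol, it was missing after OHT at 7.14%, 23.5% and 31.1% in the same order. Of all sites without RNAPII with ethanol, 1153 of 16168 gained it (7.13%). Of all sites with RNAPII, 1632 of 13215 lost it (12.3%). The OHT list of RNAPII had 31941 peaks with a median width of 1153 bp, against 27493 of 1777 bp with ethanol, and narrower peaks overlap fewer sites. Each value rests on 1 library a condition, and what part of it is MycER activity was not tested.

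A smaller share of the Myc peaks lay on H3K4me3 after either stimulus, going from 69.9% to 53.6% with serum and from 55.5% to 44.1% with OHT. The share on RNAPII went from 77.3% to 58.8% and from 61.5% to 47.3%. The lists grew at the same time, from 5832 to 16384 and from 18000 to 27693 peaks.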
